A study of Mus musculus with 4 samples.

Results

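The 9 transcription factors described here act in the differentiating intestinal epithelium and were measured in mouse colonic mucosa at postnatal day 30 (P30) and day 90 (P90): the C/EBP factors Cebpa and Cebpb, the homeobox factors Cdx1 and Cdx2, the orphan nuclear receptor Hnf4a, the Kruppel-like factors Klf4 and Klf5, the pregnane X receptor gene Nr1i2 and the aryl hydrocarbon receptor gene Ahr. They were chosen by function, with earlier results of these data known. Every gene probe whose design accession maps to 1 of the 9 symbols was taken. The 9 genes are carried by 12 probes, all of which passed the filter on dim probes, out of 20825 genes tested. Cebpa had 2 probes, Hnf4a 3, and the other 7 genes 1 each.

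The samples were total RNA from scraped colonic mucosa of C57BL/6 mice aged 90 or 30 days, with no other treatment or genotype named in the labels. Each of 4 arrays, called a, b, e and k, received 1 P90 and 1 P30 RNA, with Cy3 marking P90 on all but array e, where the dyes were swapped. The question is how transcript levels differ from one age to the other. The labels call the 4 comparisons independent without saying whether each animal was used once. Each p-value therefore speaks only for these 4 pairs and their scatter, some of which may be technical. The limma p-values also draw on the spread of all genes tested.

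The arrays were not alike. The P90 to P30 ratios of array b correlated at r = -0.30 with array a, -0.27 with array e and -0.17 with array k over all probes. Arrays a and e correlated at 0.58, a and k at 0.43, and e and k at 0.30. The labels state the dyes, so the labelled direction was kept. The count of members with the same direction on every array is also given without array b and with its sign turned. Counts within the gene lists are given for the labelled direction only. Of 10 epithelial marker genes all were tested, and 7 of them were at the top of the scanner's range; Epcam and Cdh1, 2 of the brightest below that limit, had mean log2 P90/P30 ratios of -0.34 and 0.09. In bulk mucosa, fewer cells of a type and less RNA per cell cannot be told apart.

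The colonic surface is renewed from crypt stem cells, and the daughter cells leave the cycle, move up the crypt and take on an absorptive or secretory fate. CDX2 and HNF4A set intestinal identity and drive brush border genes, KLF5 is a factor of the proliferating crypt, and KLF4 marks the cells that have stopped dividing and the goblet lineage. C/EBP proteins are basic leucine zipper factors of differentiation, metabolism and the acute phase response. PXR, the product of Nr1i2, and AHR are sensors that bind foreign and bacterial compounds and induce enzymes of detoxification.

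None of the 9 factors passed the test between the ages. With limma and Benjamini-Hochberg adjustment over all 20825 genes, 0 genes were called (0%) and the smallest adjusted p was 0.617, while 1645 genes (7.9%) had an unadjusted p under 0.05. Cebpa, higher at P90, and Klf5, lower, were among the latter (2.59% of all genes were higher and 5.31% lower at that p). Klf4 was too bright for its ratio to be measured on every array, as described below. Means lay above 0 for 4 of the 8 others, beside 45.6% of all genes. By direction alone, Cebpa lay above 0 on all 4 arrays and Cdx2 and Klf5 lay below 0 on all 4, which is 3 of 8 members (37.5%) beside 14.1% of all genes with 1 direction on every array. Without array b the count was 4 of 8, 50%, as Ahr joined those below 0, beside 47.5% of all genes. With array b's sign turned it was 1 of 8, Ahr alone, beside 33.4% of all genes. The median log2 P90/P30 over all genes was -0.020.

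**Figure D1:**
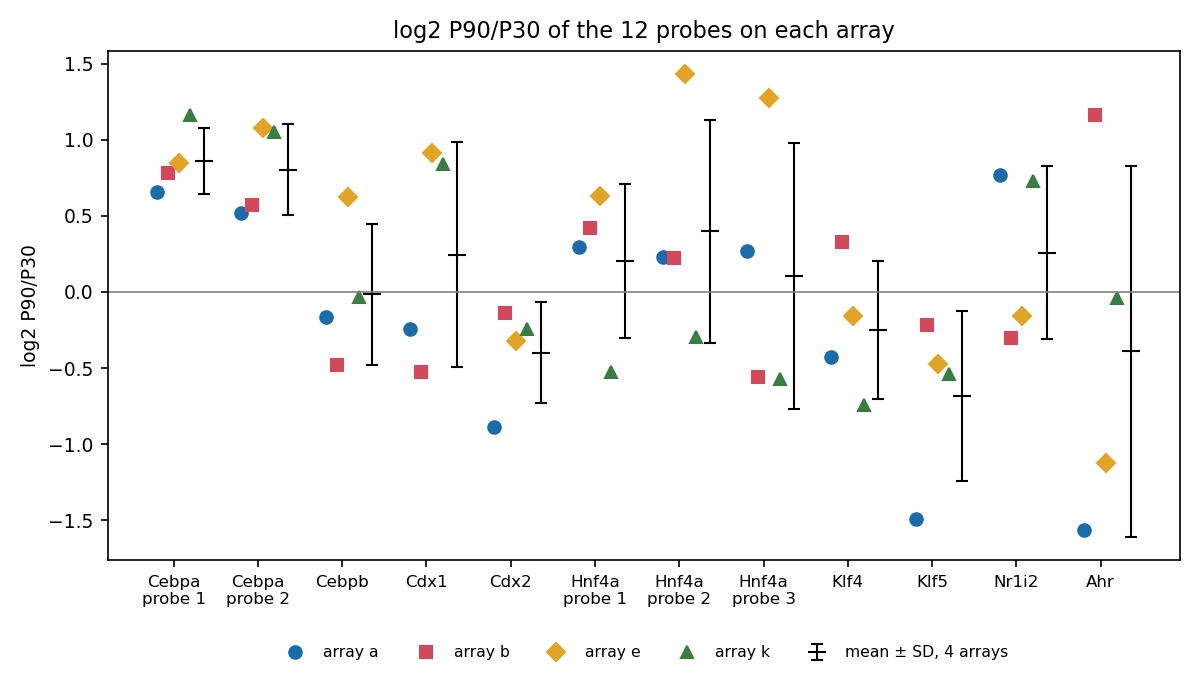
Log2 P90/P30 of the 12 probes, with 1 symbol per array and the mean ± SD over the 4 arrays as a bar to the right. Both Cebpa probes lie above 0 on every array, Cdx2 and Klf5 lie below 0 on every array, and Ahr spans from -1.57 to 1.16; the Klf4 values of arrays b and e come from spots saturated in both dyes.

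Cebpa, which encodes C/EBP alpha, had the smallest p of the 9 factors. Its brighter probe gave log2 P90/P30 of 0.65 on array a, 0.78 on array b, 0.85 on array e and 1.16 on array k. The P90 channel was higher on all 4 arrays, and the lowest and the highest differed by 0.51. The mean was 0.86 ± 0.21 (SD, n = 4 arrays), a 1.82-fold ratio, with an adjusted p of 0.617 (limma) and an unadjusted p of 0.000924, which ranked 21 among the genes tested. Only 0.547% of genes had a larger mean. The dimmer Cebpa probe gave 0.52, 0.57, 1.08 and 1.05 on arrays a, b, e and k, with a mean of 0.80 ± 0.30 (SD, n = 4). The 2 probes thus had the same sign on each array.

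The normalised level of Cebpa, in log2 units, was 11.63, 11.96, 10.95 and 11.71 in the P90 channels of arrays a, b, e and k, and 10.98, 11.18, 10.10 and 10.55 in the P30 channels. The levels of the ages overlapped between arrays, because array e was low in both, so the difference shows within each pair. Adipocytes also express Cebpa. The adipocyte markers, 11 of 12 of them tested, had median log2 P90/P30 of 0.056, 1.71, 3.97 and 0.20 on arrays a, b, e and k, and their summed level ran from 6886 to 197883 at P90 and from 4329 to 13384 at P30. On arrays a, b and e the adipocyte medians and the Cebpa ratios had the same order, lowest on array a and highest on array e. Array k had the highest Cebpa ratio and an adipocyte median of 0.20. The part of adipocytes in the Cebpa ratio was not tested.

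The Cebpa promoter window is shown because this gene had the steadiest ratio. It covers 250 bases before to 50 after the start, at chr7:35119043-35119342 on the plus strand of GRCm38.p6 (RefSeq), and capitals mark GGGTG, the reverse of the KLF pattern CACCC.
Cebpa: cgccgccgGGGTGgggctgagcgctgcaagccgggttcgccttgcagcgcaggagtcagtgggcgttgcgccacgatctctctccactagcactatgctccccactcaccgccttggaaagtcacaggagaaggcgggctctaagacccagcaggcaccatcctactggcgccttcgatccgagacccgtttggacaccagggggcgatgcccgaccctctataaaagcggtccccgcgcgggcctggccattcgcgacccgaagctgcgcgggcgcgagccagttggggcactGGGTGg
CACCC, on either strand, stood in 57.5% of 32851 promoter windows of the same length. The CDX pattern TTTATNG, found in 10.9% of windows, matched once as CTATAAA, at position -31 from the start and overlapping the TATA-like run. The C/EBP pattern TTGCNNAA, found in 10.8%, had no match in this window.

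Cebpb, the related factor of the acute phase response, showed no steady direction. Its log2 P90/P30 was -0.16 on array a, -0.48 on array b, 0.62 on array e and -0.036 on array k, a mean of -0.015 ± 0.46 (SD, n = 4; limma adjusted p = 0.994). Array e alone lay above 0. The difference between Cebpa and Cebpb was 0.82, 1.27, 0.23 and 1.20 on the 4 arrays, above 0 on 4 of 4, with a mean of 0.88 ± 0.48. An exact sign-flip permutation test, two-sided, gave p = 0.125, the smallest that 4 arrays allow, and 0.25 after adjustment over the 3 pairs of related factors compared.

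The other C/EBP genes and their partners did not share the Cebpa pattern. Of 8 tested, 0 passed the test and 0 had 1 direction on all 4 arrays, and their median was -0.0059. Cebpd, another acute phase member, was the brightest, with 0.81, 0.39, 0.41 and -0.69 on arrays a, b, e and k. Among the C/EBP target genes, 12 were tested and 10 had a usable ratio. Of these, 0 passed the test, 3 lay above 0 on all 4 arrays and 0 below, and the median was 0.53. Without array e the median was 0.087, and without array k it was 1.17; without array a it was 0.31. By array the median was 0.63, 0.29, 1.87 and -0.20, so array k, with the highest Cebpa ratio, had the lowest target median.

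The 3 targets above 0 on every array were Adipoq, Hp and Orm1. Adipoq, the fat hormone adiponectin, had a mean of 2.85 ± 2.43 (SD, n = 4) and reached 6.32 on array e. Hp, the plasma protein haptoglobin, had 1.31, 1.83, 5.50 and 1.27 on arrays a, b, e and k. Orm1, an acute phase protein, had a mean of 0.21 ± 0.30 and was well above background on 2 arrays at P90 and 3 at P30. Adipoq is itself an adipocyte marker, and the adipocyte list was highest on the same array e; its part in the target median was not tested. The brightest measured target, Saa3, an acute phase protein of the serum amyloid A family, had 3.17, -0.48, 1.77 and -0.25.

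The 2 genes whose 4 ratios lay nearest to those of Cebpa, by Euclidean distance over the 4 arrays, were Cyp27a1, a sterol hydroxylase, at 0.27 and Pbld1 at 0.31. Cyp27a1 had 0.64, 0.52, 0.79 and 1.16 on arrays a, b, e and k. For Cebpb they were Gm11938 at 0.10 and Sephs2, a selenophosphate synthetase, at 0.11.

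**Figure D2:**
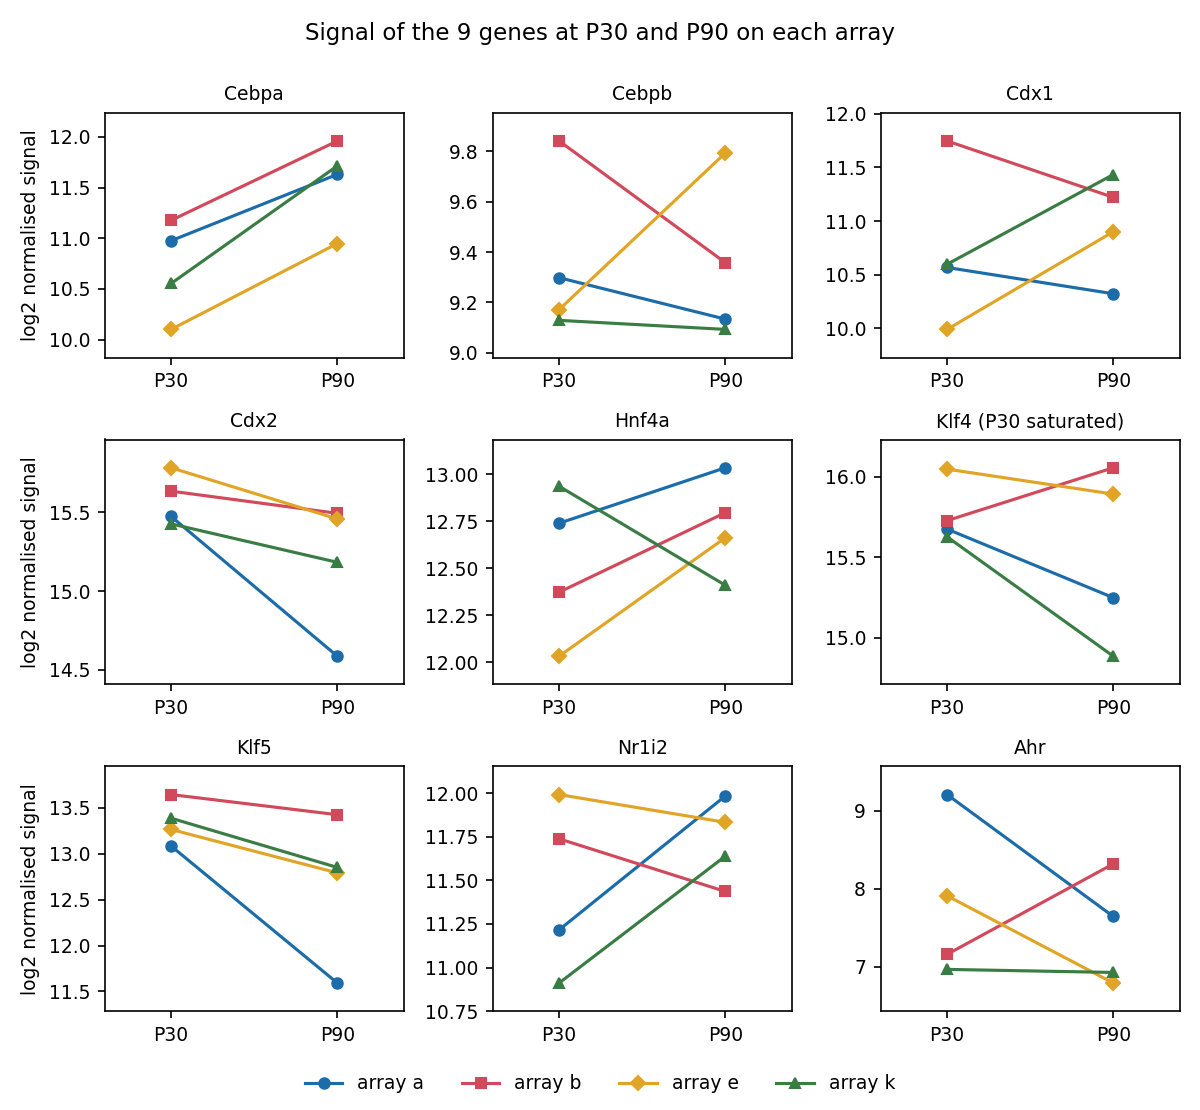
Normalised log2 signal of each factor at P30 and at P90, joined within an array, with 1 panel per gene and separate vertical scales. The 4 Cebpa lines all run upward and the 4 Klf5 and Cdx2 lines all run downward, whereas Cebpb, Cdx1, Hnf4a, Nr1i2 and Ahr each have lines running up and lines running down; the Klf4 panel holds saturated spots.

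The CDX factors bind the promoters of intestinal genes, and Cdx2 is needed to keep the gut epithelium intestinal. Cdx2 gave log2 P90/P30 of -0.89 on array a, -0.14 on array b, -0.32 on array e and -0.24 on array k. All 4 lay below 0, with array a the lowest. The mean was -0.40 ± 0.33 (SD, n = 4), a ratio of 0.758, with a limma adjusted p of 0.627. Without array a the mean was -0.24. Its probe was close to the top of the scanner's range: the raw signal ran from 13109 to 53320 at P90 and from 55317 to 61073 at P30, where saturation was set at 65507. No Cdx2 spot was marked as saturated.

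Cdx1, expressed mainly in crypt cells, split the arrays into pairs. It gave -0.25 on array a and -0.53 on array b, against 0.91 on array e and 0.84 on array k. The mean of 0.24 ± 0.74 (SD, n = 4) had a limma adjusted p of 0.868, and the spread was larger than that of 87.6% of genes. The difference between Cdx1 and Cdx2 was 0.64 ± 0.73, above 0 on 3 of 4 arrays, with an exact permutation p of 0.25.

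Of the CDX target genes 12 were tested and 9 had a usable ratio. Among these, 0 passed the test and 0 had 1 direction on all 4 arrays, and the median was 0.0032. The array medians were -0.28, 0.71, -0.31 and -0.51, so array b stood opposite the other 3, and the median without it was -0.29. Mep1a, a brush border protease subunit and the brightest of them, had a mean of 0.41 ± 0.50 and lay above 0 on arrays a, b and e. Isx, an intestinal homeobox gene, had -0.72, 1.07, -0.31 and 0.18. The nearest genes to Cdx2 were Myof, a membrane repair protein, at a distance of 0.073 and Uba2, a SUMO-activating enzyme subunit, at 0.14. Those to Cdx1 were Fkbp4, an HSP90 co-chaperone, at 0.37 and Card10 at 0.38.

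Hnf4a drives absorptive genes with its relative HNF4G. Its brightest probe gave 0.29, 0.42 and 0.63 on arrays a, b and e, and -0.53 on array k. Array k alone lay below 0, and the mean of 0.21 ± 0.51 (SD, n = 4) had a limma adjusted p of 0.845. The second probe gave 0.23, 0.22, 1.43 and -0.30, with a mean of 0.40 ± 0.73. The third gave 0.27, -0.56, 1.27 and -0.57, with a mean of 0.10 ± 0.87. The probes shared their sign on arrays a, e and k and differed on array b. Array e was the highest for each.

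The HNF4A target genes were mixed. Of 17 with a usable ratio, 0 passed the test, 3 lay above 0 on all 4 arrays, 1 lay below 0 on all 4, and the median was -0.097. Array k, the lowest for Hnf4a, also had the lowest list median, -0.53, against 0.19, 0.15 and -0.011 on arrays a, b and e. Without array k the median was 0.054. The CDX target list and the list of other intestinal transcription factors were lowest on array k too, at -0.51 and -0.33. Fabp1, the liver-type fatty acid binding protein, had 2.79, 1.28, 1.07 and 0.28. Cdhr5 and Ush1c, parts of the link complex that joins the tips of microvilli, had means of 0.37 ± 0.27 and 0.26 ± 0.19. Each of these 3 had an adjusted p between 0.617 and 0.643 (limma). The bright targets Fabp2 and Cyp2c55 lay above 0 on array b and below 0 on the other 3.

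The genes nearest to Hnf4a were Stk35, a kinase, at 0.12 and Mat2a, which makes S-adenosylmethionine, at 0.15. Among 29 further intestinal transcription factors 0 passed the test, 2 lay above 0 on all 4 arrays and 1 below, with a median of -0.036. Foxa3, a forkhead factor, lay above 0 on each and had a mean of 0.59 ± 0.43. Foxp1, another forkhead factor, lay below 0 on each and had -0.33 ± 0.26.

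Klf5 had the lowest mean of the 8 factors with a measured ratio. It gave log2 P90/P30 of -1.49 on array a, -0.22 on array b, -0.47 on array e and -0.54 on array k. All 4 lay below 0, with array a well under the rest. The mean was -0.68 ± 0.56 (SD, n = 4), a ratio of 0.624, with an unadjusted p of 0.0276 and an adjusted p of 0.621 (limma). Without array a the mean was -0.41. The level was 11.59, 13.43, 12.79 and 12.85 at P90 on arrays a, b, e and k, and 13.08, 13.65, 13.27 and 13.39 at P30. The ranges of the ages overlapped, through array b at P90 and array a at P30.

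Klf4 could be measured only in part. Its P30 spot was saturated on all 4 arrays and its P90 spot on arrays b and e. The 29 probes saturated in both ages on all arrays had medians of 1.06, 0.33, -0.16 and 0.76 on arrays a, b, e and k after loess, and the Klf4 values of 0.33 on array b and -0.15 on array e were at those levels, so they carry no ratio. On arrays a and k, where the P90 spot was in range, the values were -0.43 and -0.74. The level measured for Klf4 was 15.25 on array a and 14.89 on array k at P90, against P30 levels of 15.68 and 15.63 at the top of the range. No mean ratio is given for this gene, and its difference from Klf5 is not read.

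The KLF4 and KLF5 target genes lay mostly below 0. Of 10 with a usable ratio 9 had a mean below 0, 0 passed the test, 3 were below 0 on all 4 arrays and none above on all 4, where 7.98% of all genes were below 0 on every array. The median was -0.51, and it was -0.61, -0.40, -0.47 and -0.49 on arrays a, b, e and k. With array b's sign turned it was -0.17. Array b thus had the same sign as the others here, unlike in the CDX and AHR lists.

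The 3 genes below 0 on every array act in cell division. Birc5, the mitotic protein survivin, had -1.11, -0.88, -0.88 and -0.41, a mean of -0.82 ± 0.29 (SD, n = 4; limma adjusted p = 0.617). Ccnb1, cyclin B1, had a mean of -0.72 ± 0.48, with -0.02 on array k. Cdk1, the kinase that cyclin B1 activates, had -0.49 ± 0.30. The cell cycle inhibitor Cdkn1a, a KLF4 target, had a mean of -0.07 ± 0.72 with arrays on both sides of 0. The bright targets Odc1, which makes polyamines, and Cdh1, E-cadherin, had -0.22 ± 0.34 and 0.09 ± 0.37.

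Markers of crypt stem and proliferating cells also lay mostly below 0. Of 9 tested, 0 passed the test and 4 (Ccna2, Ccnb2, Lgr5 and Pcna) lay below 0 on all 4 arrays. Of all genes 7.98% did so. The list median was -0.79. It was -1.25, -0.60, -0.54 and -0.40 on arrays a, b, e and k, -0.44 without array a and -0.49 with array b's sign turned. Their summed level was 11433 to 17992 at P90 and 20942 to 29789 at P30. The sum rests mostly on its brightest genes, Pcna and Ccnb2. Lgr5, the stem cell receptor, had -1.21, -0.72, -0.89 and -0.77. Ascl2, Axin2 and Smoc2, also on this list, had means of 0.27, -0.06 and -0.22, each with arrays on both sides of 0. The part of these cells in the Klf5 and target values was not tested.

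Within the Kruppel-like family 13 further members were tested. Of these 0 passed the test, 1 lay above 0 on all 4 arrays (Klf16, 0.56 ± 0.51) and 1 below (Klf12, -0.31 ± 0.26), with a median of -0.080. A dimmer Klf12 probe that also passed the filter had a mean of 0.029, so the probes of this gene did not share the decrease. Klf12 was dim, with mean levels of 6.63 at P90 and 6.94 at P30. Klf2, known from endothelium and lymphocytes, had 0.20, -3.37, 2.80 and 0.58. Klf6 had -1.64, 0.36, -0.20 and -1.03. The genes nearest to Klf5 were Ddx58, the RNA sensor RIG-I, at 0.14 and Hmgb3, a chromatin protein, at 0.15. Because of the saturated spots no likeness is read for Klf4; its nearest genes by the same measure were Pfkfb2 and Dusp2.

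**Figure D3:**
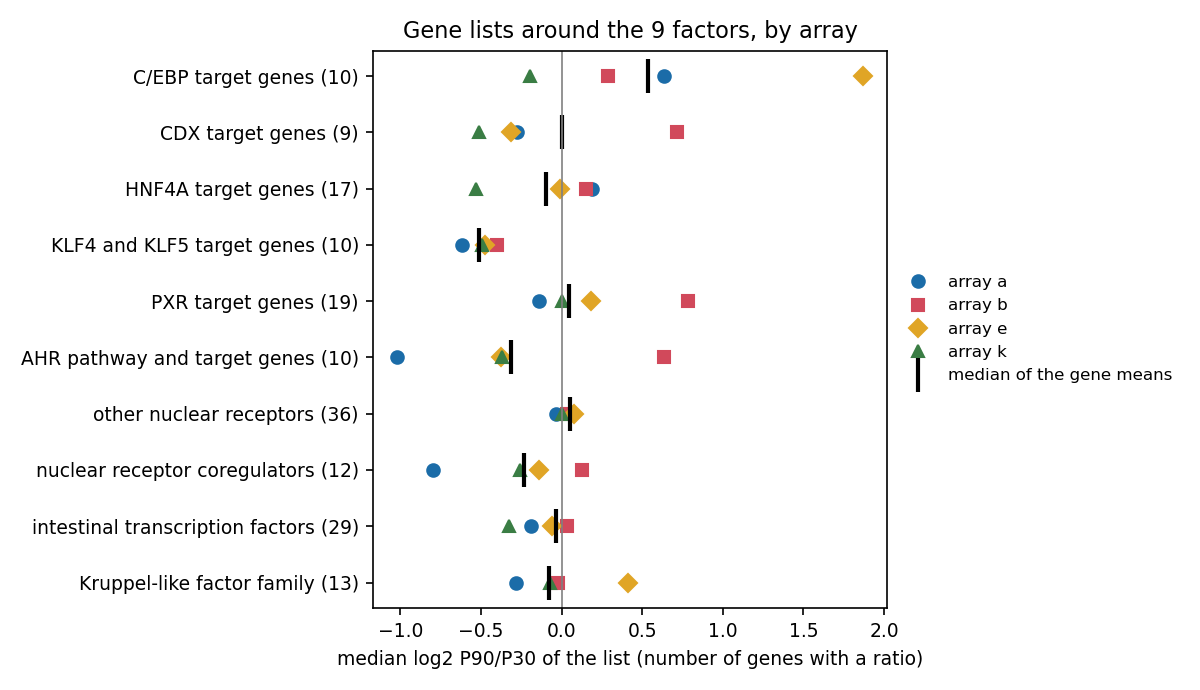
Median log2 P90/P30 of each gene list on each array, with the median of the gene means as a black bar and the number of genes with a ratio in brackets. The KLF4 and KLF5 target medians lie close together between -0.61 and -0.40, the AHR list runs from -1.02 on array a to 0.64 on array b, and the C/EBP target list reaches 1.87 on array e.

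Nr1i2 encodes PXR, which pairs with RXR and induces drug-metabolising enzymes. Its log2 P90/P30 was 0.77 on array a, -0.30 on array b, -0.16 on array e and 0.73 on array k. The arrays fell on both sides of 0, and the mean of 0.26 ± 0.57 (SD, n = 4) had a limma adjusted p of 0.809. The genes nearest to it were Zbtb32 at 0.084 and Rita1 at 0.24.

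The PXR target list had a median near 0, with 4 CYP3A genes and a carboxylesterase well above it. Of 19 tested, 0 passed the test, 5 lay above 0 on all 4 arrays (6.15% of all genes did so) and 1 below, with a median of 0.047. That median was -0.043 without array b and -0.14 with array b's sign turned. Cyp3a44 had 2.12, 3.84, 3.97 and 3.44 on arrays a, b, e and k, a mean of 3.34 ± 0.85 (SD, n = 4; limma adjusted p = 0.617). Cyp3a16 had 1.20, 2.71, 2.78 and 2.19. Cyp3a11, the main drug-oxidising member, had 0.48, 2.40, 2.51 and 1.44. These CYP3A enzymes were lowest on array a, where Nr1i2 was highest, and highest on arrays b and e, where it lay below 0.

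Cyp3a44 was well above background on all 4 arrays in both ages, with levels of 7.85 to 10.56 at P90 and 5.73 to 6.59 at P30. The P30 levels lie near the added offset of 50, on a log2 scale that compresses ratios there. CYP3A genes are related copies that share sequence, and whether the probe of 1 also binds transcripts of another was not tested. Their promoter windows were compared as well, which does not bear on probe binding. With an alignment over the window, Cyp3a16 and Cyp3a44 were identical at 93.4% of positions, Cyp3a11 and Cyp3a16 at 75.2%, and Cyp3a11 and Cyp3a44 at 71.8%.

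The 3 windows are printed because PXR with RXR binds pairs of short elements such as AGGTCA and AGTTCA. They are RefSeq windows of 300 bases on GRCm38.p6, minus strand, at chr5:145879805-145880104 for Cyp3a11, chr5:145469674-145469973 for Cyp3a16 and chr5:145805825-145806124 for Cyp3a44, and capitals mark either element on either strand.
Cyp3a11: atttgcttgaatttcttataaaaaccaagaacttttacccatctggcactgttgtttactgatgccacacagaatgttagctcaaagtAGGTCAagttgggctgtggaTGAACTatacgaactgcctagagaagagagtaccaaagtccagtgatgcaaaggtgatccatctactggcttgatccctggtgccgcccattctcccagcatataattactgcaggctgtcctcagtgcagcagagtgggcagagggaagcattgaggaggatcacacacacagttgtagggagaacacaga
Cyp3a16: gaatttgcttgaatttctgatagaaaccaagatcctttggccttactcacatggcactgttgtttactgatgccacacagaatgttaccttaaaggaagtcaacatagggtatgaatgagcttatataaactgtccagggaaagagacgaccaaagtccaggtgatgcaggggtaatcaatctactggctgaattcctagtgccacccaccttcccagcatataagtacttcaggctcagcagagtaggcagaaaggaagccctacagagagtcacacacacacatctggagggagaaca
Cyp3a44: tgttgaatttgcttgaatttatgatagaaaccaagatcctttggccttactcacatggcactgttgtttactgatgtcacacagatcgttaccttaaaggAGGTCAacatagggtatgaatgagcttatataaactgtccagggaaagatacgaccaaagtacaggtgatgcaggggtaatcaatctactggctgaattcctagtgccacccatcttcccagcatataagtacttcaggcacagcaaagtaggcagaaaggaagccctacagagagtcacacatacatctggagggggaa
Counted from the start, Cyp3a11 held AGGTCA at position -162 and AGTTCA, as TGAACT, at -142. Cyp3a44 held AGGTCA at -150, and the Cyp3a16 window had no match. AGGTCA stood in 16.3% and AGTTCA in 14% of all windows. A match is a description of letters, and the array data do not bear on binding.

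Other members of the PXR list differed among themselves. Ces2a, a carboxylesterase, had 1.87, 1.26, 1.30 and 0.97, a mean of 1.35 ± 0.37, and was highest on array a. Cyp3a41a had 1.31 ± 0.43. Cyp3a25 and Cyp3a13 had arrays on both sides of 0, with means of 0.74 ± 1.19 and -0.14 ± 0.71. Abcc2, the canalicular export pump, lay below 0 on all 4 arrays at -0.49 ± 0.33, and was well above background on only 1 array at P90. The drug efflux pumps Abcb1a and Abcb1b had means of -0.45 ± 1.52 and -0.70 ± 1.11. Gstm1, the brightest on the list, had -0.20 ± 0.46.

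**Figure D4:**
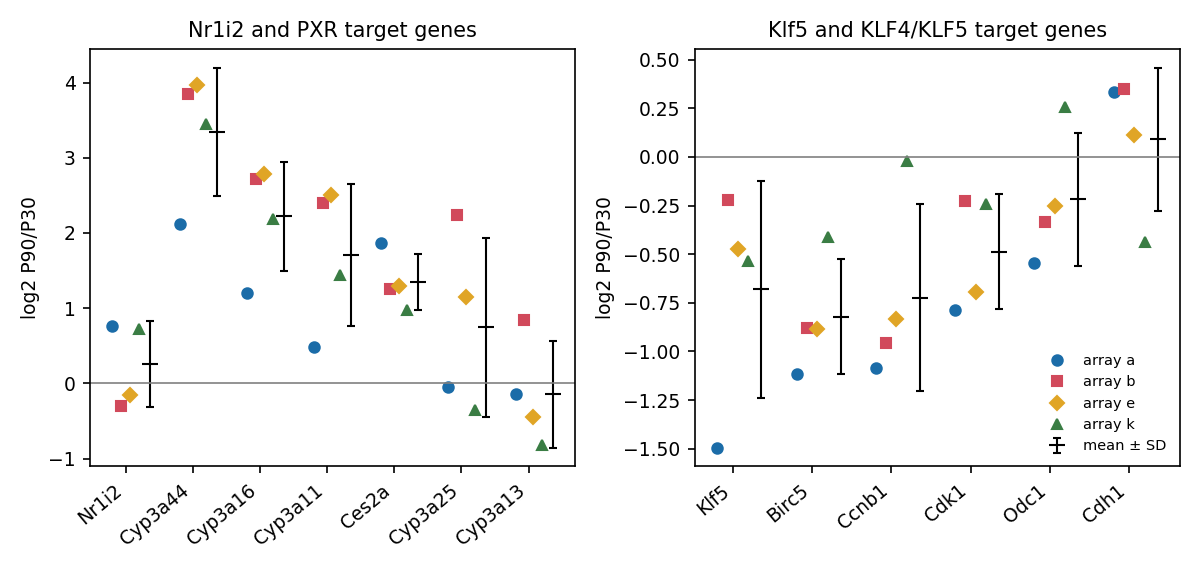
Log2 P90/P30 on each array, with mean ± SD, for Nr1i2 beside PXR target genes on the left and for Klf5 beside KLF4 and KLF5 target genes on the right; the target genes drawn were chosen after their values were seen. Cyp3a44, Cyp3a16, Cyp3a11 and Ces2a lie above 0 on every array while Nr1i2 does not, and Birc5, Ccnb1 and Cdk1 lie below 0 on every array, as Klf5 does.

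Among 36 other nuclear receptors, 0 passed the test, 4 lay above 0 on all 4 arrays and 1 below, with a median of 0.055. Rarg, a retinoic acid receptor, had 0.47 ± 0.15, and Nr1h2, the oxysterol receptor LXR beta, had 0.36 ± 0.27. Rara, another retinoic acid receptor, had 0.21 ± 0.15, and Nr2c2 had -0.21 ± 0.09. The vitamin D receptor Vdr was the brightest and had 0.12 ± 0.28. Of 12 coregulators 0 passed the test and 1, Ncoa1, lay below 0 on all 4 arrays, at -0.47 ± 0.39, with a list median of -0.24, which was -0.086 without array a and -0.45 without array b.

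Ahr had the widest spread of the 8 factors with a measured ratio. It gave log2 P90/P30 of -1.57 on array a, 1.16 on array b, -1.12 on array e and -0.039 on array k. Arrays a and e lay far below 0, array b far above and array k near 0, and the mean of -0.39 ± 1.22 (SD, n = 4) had a limma adjusted p of 0.862. Its SD was larger than that of 97.0% of genes, against a median SD of 0.35. The probe was printed 10 times on each array, and 9, 10, 9 and 7 spots entered on arrays a, b, e and k. The SD between those spots was 0.082, 0.095, 0.065 and 0.10, far less than the differences between arrays.

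The level of Ahr, in log2 units, was 7.64, 8.32, 6.79 and 6.92 at P90 on arrays a, b, e and k, and 9.21, 7.16, 7.91 and 6.96 at P30. The P30 level of array a was the highest of the 8 values. The probe was dim at P90, with raw signals of 106.5, 114 and 88.6 on arrays a, e and k. The median P90 backgrounds there were 42, 68 and 39. At P30 array k gave 140 against a background of 68. The probe was still marked well above background on every array in both ages. Both levels of array k lie near the added offset, on a log2 scale that compresses ratios there. The pattern below 0 on arrays a and e and above 0 on array b was shared by 24.5% of all genes. Markers of supporting cells had it too. The fibroblast markers, 9 of 10 tested, had medians of -3.64, 1.41, -2.28 and -2.68, and their summed level ran from 2278 to 30377 at P90 and from 10999 to 89576 at P30. The endothelial markers, 10 of 10 tested, had -0.91, 0.89, -0.55 and -1.29, with sums of 1821 to 6823 at P90 and 2634 to 11266 at P30. On array k Ahr was near 0 and both lists were well below 0. Because Ahr was so dim on array k, the size of its ratio there is uncertain. The part of these cells in the Ahr values was not tested.

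**Figure D5:**
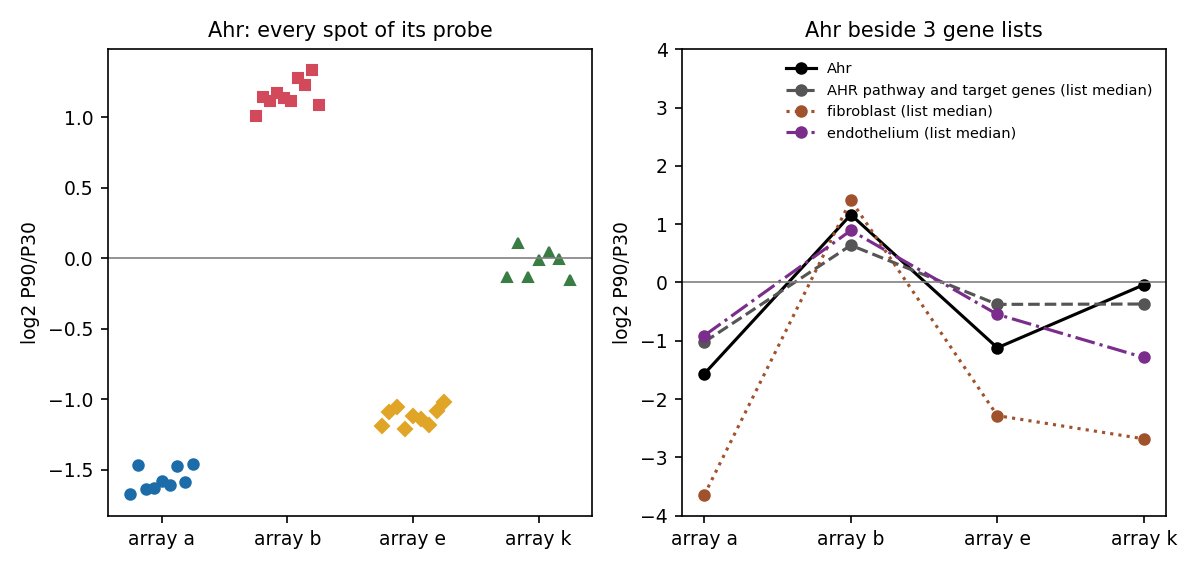
Left, log2 P90/P30 of every used spot of the Ahr probe on each array; right, the Ahr value on each array beside the medians of the AHR, fibroblast and endothelial lists. The spots cluster tightly within an array, and Ahr and the 3 lists lie above 0 on array b and below 0 on arrays a and e.

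The AHR pathway list followed the same order of arrays. Of 10 tested, 0 passed the test and 1 lay below 0 on all 4 arrays, and the median was -0.31, with -1.02, 0.64, -0.38 and -0.37 on arrays a, b, e and k. Without array a that median was -0.094, and without array b it was -0.64. Nqo1, a quinone reductase induced by AHR and by the oxidative stress factor NRF2, had -1.16, -0.06, -0.56 and -0.71, a mean of -0.62 ± 0.45 (SD, n = 4; limma adjusted p = 0.617). Nfe2l2, which encodes NRF2, had -2.35, 0.92, -1.45 and -0.88.

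Direct feedback and induced genes of the receptor were also split. Ahrr, the AHR repressor, had -0.65, 0.80, -0.81 and -0.66, and Tiparp, an AHR-induced ADP-ribosyltransferase, had -1.47, 0.77, -0.59 and -0.75. Cyp1a1, the classic induced enzyme, was dim, well above background on 2 arrays at P90 and 3 at P30, with a mean of 0.12 ± 0.53. Arnt, the dimer partner of AHR, had -0.04 ± 0.49, and the chaperone Hsp90ab1 had -0.90, 0.26, 0.20 and 0.11. Without array b, Ahr lay below 0 on each of the other 3 arrays with a mean of -0.91, and without array a its mean was 0.00089. The genes nearest to Ahr were Fndc3a at 0.18 and Tox3 at 0.23.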

How the data were processed

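Colonic mucosa RNA of P90 and P30 mice was measured on 4 two-colour Agilent arrays of 45018 spots. Per the file headers, the deposited files give linear spot intensity before normalization and a log10 ratio of Cy5 over Cy3 of the processed signals; the deposited series value table holds log2 ratios of P90 over P30, matched to the former. Outlier, background and saturation marks are from the deposited files. The headers name Agilent Feature Extraction 10.5.1.1, and the submitters' processing notes name 8.5.1.1. All arrays lay on 1 slide, so no batch could be tested.

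Probes were named by accession through RefSeq (GRCm38.p6; 25097 of 41174). Median signals were corrected with normexp (offset 50) and loess (span 0.3) in limma 3.58.1 under R 4.3.3; outlier spots were left out and saturated spots kept. Probes well above background on at least 3 arrays in either age were kept (27055, 65.7%), spots of a probe averaged, and the brightest probe taken per gene. Of spots, 55.6% to 69.3% were well above background at P90 and 64.6% to 71.0% at P30. The 4 arrays limit the precision. Mean log2 P90/P30 was tested against 0 with lmFit and eBayes, adjusted by Benjamini-Hochberg at 0.05 over 20825 genes. On simulated data with the spread of 20815 genes, 24% of genes changed 2-fold and 67% of those changed 4-fold were called, with 7 false calls. The simulation drew each gene and array independently, whereas the real arrays were correlated, so these shares may not hold for the real data. Levels are after loess and quantile scaling of average intensity, and include the offset.

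The members and gene lists were chosen with earlier results of these data known. Lists got no test. Genes saturated on 3 or more arrays in an age were left out of list counts and medians, a choice made after the data were seen. The text names all members, per pathway list up to 4 genes with 1 direction on all arrays and the 2 brightest unsaturated, the 2 brightest per marker list, and the 2 nearest genes per member; further list genes were named after their values were seen. A few genes picked this way are left out of the text. 22 alternatives and those added for directions and saturated genes were run. RefSeq promoter windows were found for 6 of 9 members, and motifs were searched on both strands.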

Additional observations from a re-analysis of the deposited data

Results flagged for a closer look

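Of 114 groups of 4 array values checked, covering the members, their lists and the genes named for them, 4 held 1 array farther from the others than Dixon's limit of 0.829 allows; chance gives about 1 in 20. Array e gave Hp a log2 P90/P30 of 5.50, where the other arrays had 1.27 to 1.83. Array e gave Ush1c 0.54, against 0.15 to 0.19. Array a gave Hsp90ab1 -0.90, against 0.11 to 0.26. Array b gave the endothelial marker Plvap 1.54, against -1.52 to -1.0. None of the 9 factors was among them.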

How the results depend on the processing

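No factor passed the limma test under any of the 22 alternatives. Genes past the test numbered 2, both higher at P90 and neither a member, with a normexp offset of 10 and from processed signals, the log ratios as deposited or the value table, against 0 in the other 18; the cause was not tested. Cebpa stayed above 0 under all 22 (0.44 to 0.98; adjusted p 0.083 to 0.9999), and Cdx2 (-0.70 to -0.22) and Klf5 (-1.06 to -0.41) stayed below 0 under all 22. Klf4, saturated, is not read here. Cebpb turned above 0 with offset 10 (0.037), processed signals (0.097), deposited log ratios (0.0086), the value table (0.0086), a dye term (0.20), array weights (0.098) and array b turned (0.23), and ran from -0.23 to 0.14 with 1 array left out. Median centring in place of loess moved the median of all genes to -0.21 and gave Cdx1 -0.17, Hnf4a -0.16 and Nr1i2 -0.12, each still above that median. Hnf4a was -0.0060 with array b turned, -0.11 with array e unturned and -0.12 without arrays b and e. With array e unturned Cdx1 was -0.21 and Ahr 0.17. Ahr ran from -0.91 to 0.00089 with 1 array left out. Without 1 array, 3 to 5 of the 9 members had 1 direction; the 5 without array b include Klf4 through a saturated spot. Every test is already paired by array, because each array holds a P90 and a P30 sample and the ratio is the pair. Saturation limits Klf4.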
